A study of Mus musculus with 6 samples.

Results

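Genes of ISG15 conjugation and removal, of 3 TRIM ubiquitin ligases and of the Parp14-Dtx3l-Parp9 group were described in V720, a breast cancer line of the mouse with mammary epithelium as its labelled tissue. The members were the 10 genes Usp18, Herc6, Uba7, Ube2l6, Trim21, Trim25, Trim30a, Parp9, Parp14 and Dtx3l. They were read from every probe set whose only annotated gene symbol was one of these names, which gave 21 of the 45037 probe sets that are not controls, and 10 of 18193 genes. One further probe set carried the symbol of Trim30a together with that of another gene and was left out. The 10 genes were picked with the results of the comparison reported here in view, so their levels and fold changes are a description and no test of them is given.

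The cells had received 1 µM PD0332991 or vehicle for 24 h in culture, with no other treatment or allele named in the labels. PD0332991 (palbociclib) inhibits the kinases CDK4 and CDK6, which drive cells from G1 into S phase. Total RNA of 3 PD0332991 and 3 vehicle cultures, a biological triplicate per the study's design text, was hybridized to 6 Affymetrix arrays, 1 per sample. All 6 samples are of this single line.

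ISG15 is a small ubiquitin-like protein that cells make after exposure to interferon and attach to other proteins in a chain of steps. Uba7 is its activating enzyme (E1), Ube2l6 its conjugating enzyme (E2), Herc6 the main ligase (E3) in mouse cells, and Usp18 removes it again and also dampens signalling at the type I interferon receptor. Trim21 is an antibody receptor in the cytosol with ubiquitin ligase activity, Trim25 a ligase that acts with the RNA sensor RIG-I, and Trim30a a mouse TRIM protein known for restraining NF-kappaB signalling. Parp9 and Dtx3l form a complex that joins ADP-ribosylation to ubiquitin ligation, and Parp14 is a mono-ADP-ribosyltransferase with macrodomains. All of these genes are known as interferon-stimulated.

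The median probe-set intensity of the arrays was 69.6 to 71.1 with PD0332991 and 71.3 to 72.7 with vehicle. Correlations across genes were 0.9969 to 0.9973 between arrays of the same group and 0.9919 to 0.9927 between groups, and no array stood apart by these measures. Mki67, a proliferation marker that marks the action of the drug, had an intensity of 1037 ± 72.4 with PD0332991 and 4197 ± 112 with vehicle (SD, n = 3 each, adjusted p = 4.5e-05 in limma). The 11 epithelial markers summed to 61285 to 63123 with PD0332991 and 58099 to 59778 with vehicle, and 2 were called higher and none lower in limma, beside 9.81% and 11.2% of all genes. These 2 were Cldn4 (log2 fold change 0.62, adjusted p = 0.0145) and Krt7 (0.20, adjusted p = 0.0146), and neither passed without PD0332991 replicate 2 (adjusted p = 0.0513 and 0.052). Of 13 markers of fibroblasts and endothelium 12 were below the median of all genes, 154.2, on every array. They summed to 441.7 to 484.8 with PD0332991 and 492 to 527 with vehicle, and 2 were called lower and none higher, Pdgfra (-0.52, adjusted p = 0.0038) and Emcn (-0.43, adjusted p = 0.00109). Pdgfra did not pass with the mean of its probe sets (-0.20, adjusted p = 0.138). Emcn was at 5.71 ± 0.289 with PD0332991 and 13.2 ± 0.737 with vehicle (SD, n = 3 each), near the bottom of the scale. Of 14 leukocyte markers 12 were below that median on every array. The leukocyte markers summed to 2792 to 2926 with PD0332991 and 2527 to 2642 with vehicle. Cd14 alone, which was not called, made up 1905 of that sum with PD0332991 and 1740 with vehicle on average. Of these markers 5 were called higher and 1 lower, beside 9.81% and 11.2% of all genes. Those higher were Cd68, Ptprc, Adgre1, Fcer1g and Tyrobp, and Laptm5 was lower. Cd68 had 308 ± 14.7 with PD0332991 and 230 ± 15.2 with vehicle (SD, n = 3 each). Its log2 fold change was 0.40 (adjusted p = 0.00874 in limma). With each array centred on its spike-in probe sets none of the 5 passed. Ptprc, which defines leukocytes, was at 18.2 ± 1.02 with PD0332991 and 11.6 ± 1.67 with vehicle (SD, n = 3 each), near the bottom of the scale. The part of these markers in the results below was not tested.

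Fold changes are on the scale log2(intensity + 16), PD0332991 minus vehicle, which understates the change of dim genes, and where a gene had several probe sets its brightest stands for it unless stated. By that measure 9 of the 10 genes had a positive fold change, and the median over the 10 was 0.40, beside 0.00 over all genes. On 7 of the 10 every PD0332991 array was above every vehicle array, an arrangement found in 19.3% of all genes (the opposite one, found in 19.6%, occurred in none of the 10), and the same 7 passed the adjusted p of 0.05 as higher in the limma fit, as 9.81% of all genes did. None was lower, beside 11.2% of all genes. Since the genes were picked from this comparison, nothing is read from these counts. A rise in bulk RNA may come from more cells that express a gene or from more RNA per cell, and these cannot be told apart here.

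**Figure D1:**
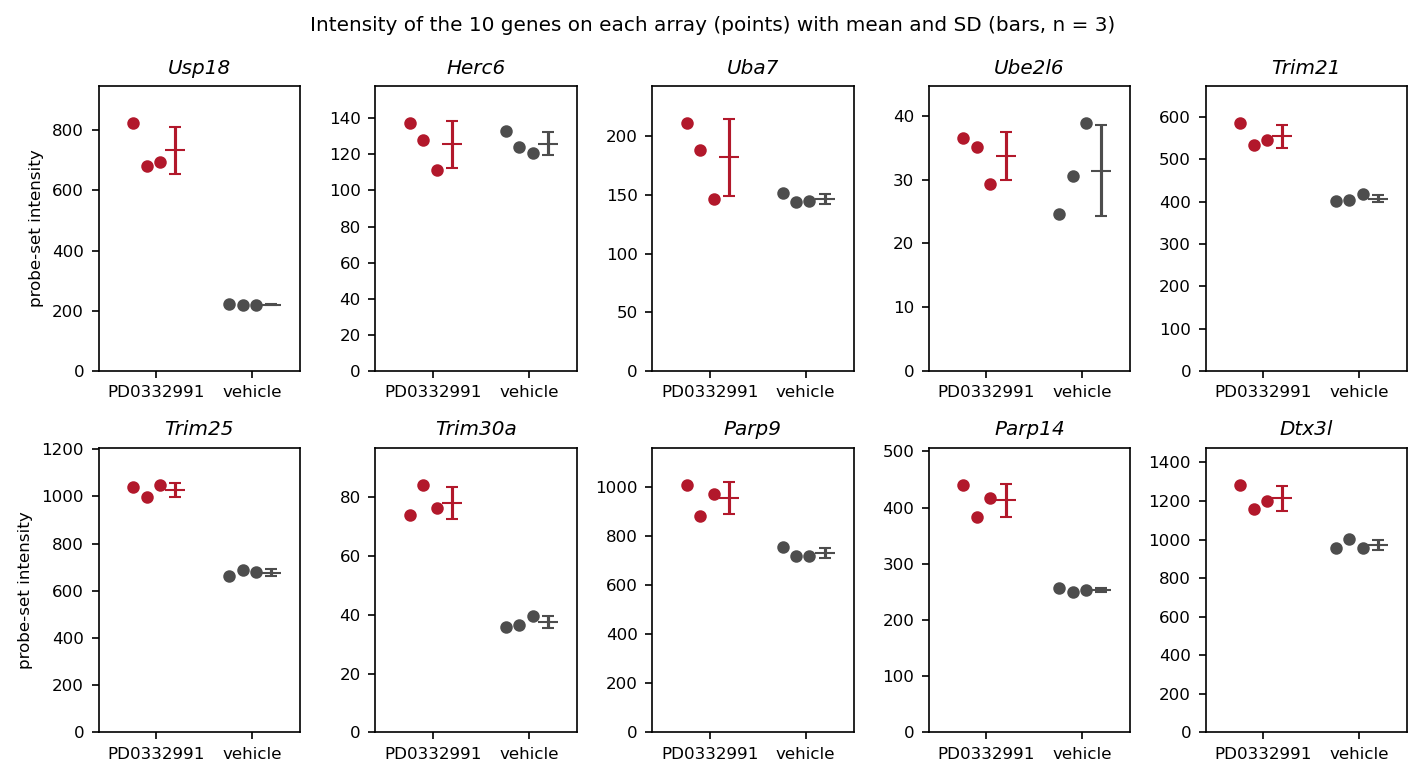
Probe-set intensity (linear axes from 0) of each of the 10 genes on the 3 PD0332991 arrays (red points) and the 3 vehicle arrays (grey points), with the mean and SD of each group as bars. The groups are apart for Usp18, Trim21, Trim25, Trim30a, Parp9, Parp14 and Dtx3l and overlap for Herc6, Uba7 and Ube2l6.

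Within the ISG15 cycle the enzyme that takes the modifier off had a larger fold change than the enzymes that put it on. Usp18, the deconjugating protease, had intensities of 823, 680 and 696 on the PD0332991 arrays and 222, 219.9 and 218 on the vehicle arrays. The lowest PD0332991 array was thus well above the highest vehicle array, and the vehicle arrays lay within a few units of each other. The fold change was 3.16, or 1.66 on the log2 scale with an SE of 0.08, the largest of the 10 genes, on the gene's single probe set.

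Uba7, the E1 enzyme that activates ISG15, had intensities of 211, 189 and 147 on the PD0332991 arrays and 152, 144 and 145 on the vehicle arrays for its brightest probe set. PD0332991 replicate 3 fell among the vehicle arrays, so the groups overlapped, and the log2 fold change was 0.27 with an SE of 0.12. It was 0.16 without PD0332991 replicate 1, 0.41 without PD0332991 replicate 3 and 0.14 with each array centred on its spike-in probe sets. The other 2 probe sets of Uba7 were dimmer, with 120, 107 and 119 on the PD0332991 arrays and 86.0, 95.6 and 103 on the vehicle arrays for one, and 77.8, 66.9 and 73.2 on the PD0332991 arrays and 35.9, 45.4 and 63.4 on the vehicle arrays for the other. On both of these every PD0332991 array was above every vehicle array, and the log2 fold changes were 0.25 (SE 0.08) and 0.48 (SE 0.16).

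Ube2l6, the E2 enzyme that receives ISG15 from Uba7, was dim, with 36.6, 35.1 and 29.4 on the PD0332991 arrays and 24.6, 30.6 and 38.9 on the vehicle arrays. The PD0332991 arrays lay inside the range of the vehicle arrays, and the log2 fold change of 0.08 was smaller than its SE of 0.12. Ube2l6 has 1 probe set here, so no other reading bears on it.

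Herc6, the mouse E3 ligase for ISG15, was read by 4 probe sets that differed in direction. The brightest had 137, 128 and 111 on the PD0332991 arrays and 133, 124 and 121 on the vehicle arrays, a log2 fold change of -0.01 (SE 0.08). The next had 142, 117 and 125 on the PD0332991 arrays and 108, 96.5 and 117 on the vehicle arrays, a log2 fold change of 0.23 (SE 0.09). The dimmest pair had log2 fold changes of -0.10 (SE 0.09) and 0.13 (SE 0.08). On none of the 4 were the groups apart, so the probe sets give no single direction for Herc6.

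**Figure D2:**
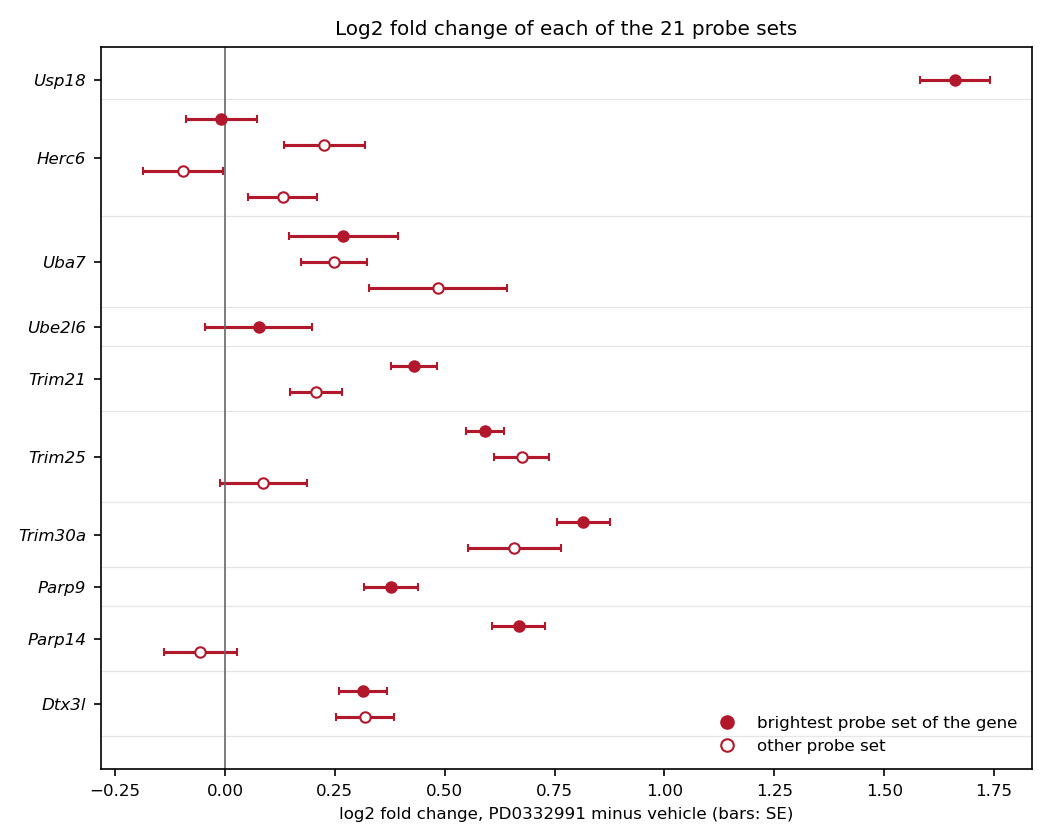
Log2 fold change, PD0332991 minus vehicle, of each of the 21 probe sets (horizontal axis), grouped by gene (vertical axis), with the SE from the fit over all probe sets as bars and the brightest probe set of each gene filled. Usp18 stands farthest to the right at 1.66, both probe sets of Dtx3l lie together at 0.31 and 0.32, and those of Herc6 lie on both sides of 0.

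The 3 TRIM genes were higher on their brightest probe sets. Trim30a had the largest fold change of the 3 at the pseudocount of 16, at a low intensity of 73.7, 84.2 and 76.1 on the PD0332991 arrays and 35.9, 36.5 and 39.7 on the vehicle arrays. Every PD0332991 value was well above the vehicle values, with a log2 fold change of 0.82 (SE 0.06), or 1.76-fold. With a pseudocount of 64 it was 0.49, below the 0.56 of Trim25, and with a pseudocount of 1 it was 1.04. Its second probe set had 74.0, 55.1 and 56.3 with PD0332991 and 33.9, 35.2 and 30.01 with vehicle, with a log2 fold change of 0.66 (SE 0.11). On the probe set left out because it also carried the symbol of another gene, not every PD0332991 array was above every vehicle array. Trim30a has close relatives beside it on chromosome 7, which its probes may also detect.

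Trim25, the ligase of the RIG-I pathway, also described as a ligase for ISG15, had 1041, 995 and 1049 on the PD0332991 arrays and 662, 688 and 680 on the vehicle arrays. The groups were far apart for the spread within each, with a log2 fold change of 0.59 (SE 0.04). A second probe set gave 963, 930 and 986 with PD0332991 and 554, 599 and 634 with vehicle, and a log2 fold change of 0.67 (SE 0.06). The remaining one was dim, at 119, 122 and 114 with PD0332991 and 92.9, 119 and 121 with vehicle, and its groups overlapped (log2 fold change 0.09, SE 0.10).

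Trim21, the cytosolic antibody receptor, had 585, 534 and 545 on the PD0332991 arrays and 400.4, 404 and 418 on the vehicle arrays. The groups did not overlap, and the log2 fold change was 0.43 (SE 0.05). Its second probe set, at 229, 202 and 224 with PD0332991 and 192, 188 and 180.4 with vehicle, also kept the groups apart with a smaller log2 fold change of 0.21 (SE 0.06).

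On chromosome 16 the RefSeq gene table places Dtx3l and Parp9 next to each other with overlapping spans, and Parp14 is separated from Dtx3l by 2 predicted genes. All 3 were higher with PD0332991 on their brightest probe sets. Parp14, the mono-ADP-ribosyltransferase, had 441, 382 and 416 on the PD0332991 arrays and 257, 250.3 and 254 on the vehicle arrays. The groups were far apart, with a log2 fold change of 0.67 (SE 0.06). A second, dim probe set of Parp14 had 48.2, 40.5 and 36.9 with PD0332991 and 44.1, 46.5 and 41.3 with vehicle, and its groups overlapped (log2 fold change -0.06, SE 0.08).

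Parp9, the macrodomain partner of Dtx3l, had 1008, 883 and 970.3 on the PD0332991 arrays and 753, 718 and 716 on the vehicle arrays. The groups were apart, and the log2 fold change was 0.38 (SE 0.06). Dtx3l, the ubiquitin ligase of the pair, had 1285, 1157 and 1199 on the PD0332991 arrays and 959, 1005 and 955 on the vehicle arrays, with a log2 fold change of 0.31 (SE 0.05). The second probe set of Dtx3l had 655, 564 and 600.3 with PD0332991 and 475, 473 and 499 with vehicle, and nearly the same log2 fold change, 0.32 (SE 0.07). On the brightest probe sets the fold changes of Parp9 and Dtx3l were close to each other and that of Parp14 was larger than both. With the mean of each gene's probe sets that order did not hold, the log2 fold changes being 0.31 for Parp14, 0.38 for Parp9 and 0.32 for Dtx3l. Their differences were not tested.

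Over the 21 probe sets, 18 had a positive log2 fold change and 13 had all PD0332991 arrays above all vehicle arrays, beside 15.5% of all probe sets. In the fit over all probe sets 10 of the 21 were called higher and none lower, where 6.00% of all probe sets were called higher. The median was 0.31, beside -0.01 over all probe sets. Of the 7 genes with several probe sets, Dtx3l, Trim21, Trim30a and Uba7 had fold changes of 1 sign on all of them, and Trim25 did too, with 1 near 0. Parp14 and Herc6 had both signs.

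The PD0332991 arrays were not equal to each other for these genes. PD0332991 replicate 1 had the highest intensity of the 3 PD0332991 arrays in 8 of the 10 genes, beside 30.4% of all genes, and PD0332991 replicate 2 the lowest in 6. Relative to the vehicle mean of each gene, Usp18 stood at 1.83, 1.56 and 1.59 on PD0332991 replicates 1 to 3 (log2), Parp14 at 0.76, 0.56 and 0.68, and Parp9 at 0.46, 0.27 and 0.40. Trim30a, at 0.75, 0.91 and 0.79, was the one gene whose highest value was on replicate 2. Genes on the same arrays share those arrays, so these counts are a description. Without PD0332991 replicate 1 the log2 fold change of Usp18 was 1.58, and the same 7 genes were past the threshold.

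**Figure D3:**
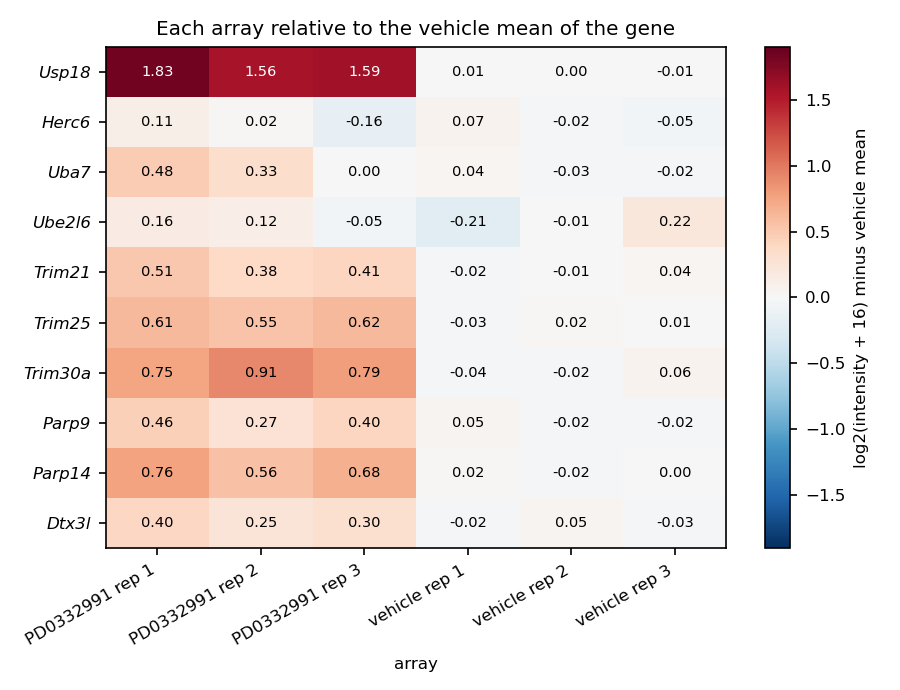
Difference of each array's log2(intensity + 16) from the vehicle mean of the gene (colour and printed value), with the 10 genes as rows and the 6 arrays as columns, PD0332991 on the left. The 3 PD0332991 columns are above 0 for 7 genes, with replicate 1 the highest in most rows, while Herc6, Uba7 and Ube2l6 are at or below 0 on PD0332991 replicate 3.

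Promoter sequences show which of the genes carry the letters that interferon regulatory factors are known to bind. RefSeq promoter windows of build GRCm38.p6, from 250 bases before to 50 bases after a gene's start, were at hand for 7 of the 10 genes: Herc6, Uba7, Ube2l6, Trim21, Trim25, Trim30a (with 2 starts) and Dtx3l. A core of the interferon-stimulated response element, GAAANNGAA, was searched on both strands, along with the IRF core AANNGAAA, which overlaps it, the STAT dimer motif TTCNNNGAA and the E2F motif GGCGGGAA. The 4 motifs were chosen after the sequences had been seen. The windows that hold matches of the response element or of the IRF core near the start are printed 5′ to 3′ on the gene's own strand, with the matched letters in capitals.
Trim21, response element, chr7:102565446-102565475, minus strand: tgagagGAAACTGAAAGTGAAatttggact
Trim30a, response element, first start, chr7:104465199-104465258, minus strand: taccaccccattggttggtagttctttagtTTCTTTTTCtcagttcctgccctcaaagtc
Trim30a, response element, second start, chr7:104446101-104446130, minus strand: tttttagtTTCTTTTTCtcagttcctgccc
Trim25, response element, chr11:88999386-88999415, plus strand: ccctcctgTTCAGTTTCgattccttcctcg
Uba7, IRF core, chr9:107975510-107975566, plus strand: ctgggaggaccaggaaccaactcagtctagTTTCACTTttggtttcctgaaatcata

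The core of the response element was present in 3 of the 7 genes, all of them TRIM genes, and in 8.56% of all 32851 RefSeq promoter windows. Trim21 held 2 overlapping matches just after its start, at positions 14 to 22 and 20 to 28. Trim30a held 1 at each of its 2 starts, at positions -35 to -27 for the first, and Trim25 held 1 just before its start, at -9 to -1, both on the opposite strand. The IRF core was present in 5 of the 7: in those 3 TRIM genes, in Uba7 at positions -27 to -20 and late in the window of Dtx3l. It is common, being found in 23.9% of all windows. The windows of Herc6 and Ube2l6 held none of the 4 motifs, and none of the 7 held the STAT motif, which 8.30% of all windows hold. The E2F motif, found in 2.19% of all windows, was present in that of Dtx3l. A match is not evidence that a factor binds, and a window without one says only that these letters are not in it.

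Other genes of the same families were counted to set the 10 beside their relatives. The lists were chosen with earlier results of these data known, and all p-values are from limma, adjusted over all 18193 genes. Of 26 measured genes of related conjugation enzymes and modifiers, which included the E1 and E2 enzymes of ubiquitin and its relatives, the other HERC genes and further ubiquitin proteases, none was higher and 1 lower, beside 9.81% and 11.2% of all genes, the list's median being 0.02 (log2). With a pseudocount of 64 in place of 16, 2 were higher and 2 lower. The 1 called lower was Sae1, a subunit of the E1 enzyme of SUMO, with 2161, 2181 and 2256 on the PD0332991 arrays and 3055, 3142 and 3157 on the vehicle arrays (log2 fold change -0.50, SE 0.04, adjusted p = 0.000595). Of the other 3 probe sets of Sae1, 1 was called lower (-0.37) and 2 dim ones were not (-0.14 and -0.02). With the mean of each gene's probe sets Sae1 was at -0.26 (adjusted p = 0.056), and the 1 call of the list was Ufm1, another modifier, which was higher (0.19, adjusted p = 0.0407). The HERC genes Herc1 to Herc4 had log2 fold changes of -0.04, 0.12, 0.13 and 0.01 and did not pass the threshold. Herc2 did pass as higher with a pseudocount of 64 (0.11, adjusted p = 0.0374). It also passed with quantile normalization, array median centring, trend and robust settings, or without dim genes. Isg15 itself was not analysed here, since its probe set carries several gene symbols.

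Among 57 other measured TRIM genes 7 were higher and 8 lower, shares near the 9.81% and 11.2% of all genes, with a median of 0.01. These counts were 3 and 5 without PD0332991 replicate 2, PD0332991 replicate 3 or vehicle replicate 2, 3 and 6 without vehicle replicate 1, and 2 and 7 with each array centred on its spike-in probe sets. Trim12c, which lies in the same stretch of chromosome 7 as Trim30a, had 938, 882 and 885 with PD0332991 and 592, 625 and 628 with vehicle (log2 fold change 0.54, SE 0.04, adjusted p = 0.000949). Trim24, a coregulator of transcription, was higher by 0.39 (log2, SE 0.04, adjusted p = 0.00161), and by 0.27 with spike-in centring, where it did not pass (adjusted p = 0.168) unless vehicle replicate 1 was left out as well (adjusted p = 0.0413). A second probe set of Trim24 was called higher (0.35) and a dim one was not (-0.07). In the same chromosome 7 stretch Trim34a, named after its value was seen, had 228 ± 32.5 with PD0332991 and 125 ± 3.67 with vehicle (SD, n = 3 each, log2 fold change 0.79, adjusted p = 0.00452). Trim30d, close to Trim30a in that stretch, was dim, at 5.31 ± 2.13 with PD0332991 and 11.4 ± 3.71 with vehicle (SD, n = 3 each), and did not pass the threshold, except as lower with spike-in centring (-0.49, adjusted p = 0.0403).

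The TRIM genes that were lower included genes of other known roles. Trim59 had 1661, 1730 and 1758 on the PD0332991 arrays and 3113, 3054 and 3087 on the vehicle arrays (log2 fold change -0.84, SE 0.04, adjusted p = 8.53e-05). Trim37, a ligase that acts at the centrosome, had 774, 737 and 738 with PD0332991 and 1126, 1140 and 1155 with vehicle (log2 fold change -0.59, SE 0.04, adjusted p = 0.000298). Of its other probe sets 3 were also called lower and 1 was not, at -0.05. The lowest fold change of the TRIM list, that of Trim47, was -0.94 (adjusted p = 0.000369), named after its value was seen. Calls in the TRIM list thus lay in both directions, in shares near those of all genes, and no direction of the family is read from them.

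The PARP, macrodomain and Deltex genes also went both ways, with 4 of 22 measured genes higher and 5 lower (1 and 4 with spike-in centring), beside 9.81% and 11.2% of all genes, and a median of -0.01. Parp3, which acts in the repair of DNA breaks, had 292, 315 and 289.9 with PD0332991 and 179, 187 and 169 with vehicle (log2 fold change 0.70, SE 0.05, adjusted p = 0.000757). Parp12, an antiviral mono-ADP-ribosyltransferase, had 926, 856 and 915 with PD0332991 and 671, 685 and 663 with vehicle (log2 fold change 0.41, SE 0.04, adjusted p = 0.00226). With spike-in centring it was 0.28 and did not pass (adjusted p = 0.146), while without vehicle replicate 1 it was 0.36 and did (adjusted p = 0.037). Parp1, the main sensor of DNA breaks in the family, had 947, 920 and 882 with PD0332991 and 1240, 1256 and 1173 with vehicle (log2 fold change -0.41, SE 0.05, adjusted p = 0.00283).

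Parp2, its close relative, was also lower, by -0.36 (log2, SE 0.05, adjusted p = 0.00552). Zc3hav1, an antiviral member of the family without catalytic activity, had 2312 ± 96.0 with PD0332991 and 2264 ± 38.9 with vehicle (SD, n = 3 each, adjusted p = 0.699). The other Deltex ligases Dtx1, Dtx2, Dtx3 and Dtx4 had log2 fold changes of -0.11, -0.10, 0.20 and 0.11, and none of these 4 passed the threshold. Dtx3 did pass as higher with a pseudocount of 64 (0.18, adjusted p = 0.0315 in limma). It also passed with quantile normalization, array median centring, trend and robust settings, or without dim genes. Dtx2 passed as higher without probe sets of the _x_at and _s_at types (0.35, adjusted p = 0.0347 in limma).

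**Figure D4:**
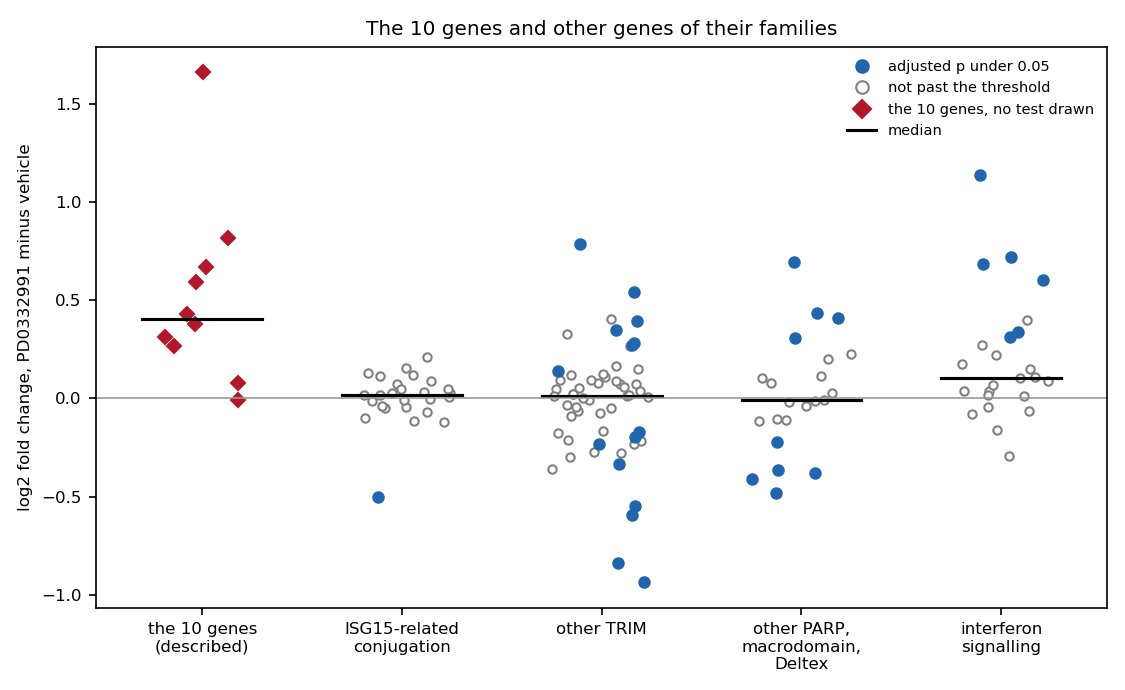
Log2 fold change, PD0332991 minus vehicle, of the 10 genes (red diamonds) and of the measured genes of 4 other lists (circles, filled where the limma adjusted p is under 0.05), with the median of each as a line. The median is 0.40 for the 10 genes and between -0.01 and 0.11 for the other lists, and the TRIM and PARP lists have called genes on both sides of 0.

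Genes of interferon signalling were measured on the same arrays, and 6 of 24 were higher and none lower (median 0.11), beside 9.81% and 11.2% of all genes. With spike-in centring 4 were higher and 1, Socs3, a feedback inhibitor of cytokine signalling, was lower (-0.42, adjusted p = 0.0246). Irf7, a transcription factor that amplifies the type I response, had 524, 421 and 484 with PD0332991 and 208, 205 and 207 with vehicle (log2 fold change 1.14, SE 0.08, adjusted p = 0.000535). Irf9, the DNA-binding subunit of the complex that acts at the response element, had 1022, 906 and 993 with PD0332991 and 571, 606 and 623 with vehicle (log2 fold change 0.68, SE 0.06, adjusted p = 0.00124). Its partner Stat2 was at 88.7 ± 1.40 with PD0332991 and 74.1 ± 8.18 with vehicle (SD, n = 3 each, log2 fold change 0.22, adjusted p = 0.0878), and its second probe set gave 0.46 (log2, adjusted p = 0.0118 over all probe sets).

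Ddx58, which encodes the RNA sensor RIG-I on which Trim25 acts, had 1264, 1170 and 1243 with PD0332991 and 722, 770 and 719 with vehicle (log2 fold change 0.72, SE 0.05, adjusted p = 0.00045). A second probe set of it was called higher too, at 0.84, and the remaining, dim one had -0.47 with an adjusted p of 0.33. With the mean of its probe sets Ddx58 was at 0.36 and did not pass (adjusted p = 0.0977). Ifih1, of the same list, was also called higher (0.61, adjusted p = 0.00268 in limma). The receptor genes Ifnar1 and Ifnar2 had log2 fold changes of 0.04 each and did not pass the threshold. Ifngr1 (0.07) and Ifnlr1 (-0.16) did not pass it either. The receptor genes Ifngr2 (0.34, adjusted p = 0.0354) and Il10rb (0.31, adjusted p = 0.0041) were called higher in limma, and neither passed with spike-in centring. The interferon gene Ifnb1 had a low intensity in both groups, 39.7 ± 2.67 with PD0332991 and 36.8 ± 8.03 with vehicle (SD, n = 3 each, adjusted p = 0.655).

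The 5 other genes whose values over the 6 arrays lay nearest to the median pattern of the 10 were Btla, Smim5, Parp12, Vegfa and Gm2a, at Euclidean distances of 0.05, 0.06, 0.07, 0.08 and 0.08 on the log2 scale. The log2 fold changes of these 5 were between 0.40 and 0.44, which follows from their being picked for closeness to that pattern. With spike-in centring none of them passed the threshold unless vehicle replicate 1 was left out as well, when all 5 did. Vegfa encodes a growth factor for blood vessels, and Gm2a a lysosomal activator protein. On a second probe set of Vegfa the log2 fold change was -0.08, so its likeness rests on the brightest one.

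Scaling bears on the smaller changes. When each array was centred on its 9 hybridization spike-in probe sets the median of all genes moved to -0.12, the log2 fold changes of Trim21, Parp9 and Dtx3l were 0.30, 0.25 and 0.19, and 4 of the 10 genes, Usp18, Trim25, Trim30a and Parp14, were past the threshold. Without vehicle replicate 1, whose spike-in mean was 9.74 against 9.94 to 10.05 on the other 5 arrays, the same centring kept 5, these 4 and Trim21.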

How the data were processed

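The values were the authors' deposited table of linear probe-set intensity, 1 column for each of the 6 arrays, all mapped to samples by their names. RNA was biotin-labelled by the standard Affymetrix procedure, per the labels' protocols. Neither label nor header states the summarisation or scaling, so a change in total RNA per cell may not be seen. The 64 control probe sets were left out. Platform annotation gave 1 symbol to 34945 probe sets, several to 932 and none to 9160, and only the first were named. All 10 members matched the RefSeq gene table (GRCm38.p6) by gene number. Values were taken as log2(intensity + 16) and fitted with lmFit and eBayes of limma 3.58.1 (R 4.3.3), PD0332991 minus vehicle, two-sided, without a replicate block, p-values being adjusted by Benjamini-Hochberg over all 18193 genes at a threshold of 0.05. A gene was its probe set with the highest mean, and a second fit covered all 45037 probe sets. The procedure was also run on simulated data, with independent genes of which fewer were changed than were called here. Nothing in the results rests on that run. The number of arrays limits the precision.

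The members and lists were chosen with earlier results of these data known. Named genes were the members, Stat2, Irf9 and Mki67 in every case, and the 5 genes nearest in pattern. From each list up to 4 called genes were named, at most 2 that rose and 2 that fell, those with the smallest p. Other genes are named as relatives of the members or as genes of the lists, after their values were seen. Ube2l3 was to be named and was not analysed here. Alternatives were other pseudocounts, scalings, filters, probe-set rules and variance models, a replicate block, and each array left out in turn. Same-numbered arrays of the 2 groups did not deviate together (correlations 0.01, -0.05 and 0.05).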

Additional observations from a re-analysis of the deposited data

How the results depend on the processing

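The median log2 fold change of the 10 genes, 0.40, was 0.28 with spike-in centring and 0.33 with the mean of each gene's probe sets, and 0.36 to 0.44 with 1 array left out in turn. The median of the 21 probe sets, 0.31, was 0.19 with spike-in centring and 0.26 to 0.35 with 1 array left out. With spike-in centring 4 of the 10 genes were past the threshold, in place of 7, and the count was 7 to 8 with 1 array left out. Uba7 passed with the mean of its probe sets or without PD0332991 replicate 3. With the replicate number as a block, which the data do not bear out as a pairing, 6 of the 10 genes passed, Dtx3l being the one lost, and 2047 of all genes were called in place of 3820. No alternative gave a negative fold change for Usp18, Uba7, Trim21, Trim25, Trim30a, Parp9, Parp14 or Dtx3l, whereas Herc6 and Ube2l6 had both signs. Over all genes, spike-in centring gave 1715 calls, 1571 without vehicle replicate 1, and 2497 to 2683 genes were called with 1 array left out.

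The 15 calls in the TRIM list were 9 with spike-in centring, 8 with such centring and no vehicle replicate 1, 8 with the replicate block, and 8 to 13 with 1 array left out, being 8 without PD0332991 replicate 2, PD0332991 replicate 3 or vehicle replicate 2 and 9 without vehicle replicate 1. The 9 calls in the PARP, macrodomain and Deltex list were 5 with spike-in centring. The 1 call in the conjugation list was 4 with a pseudocount of 64, 3 with quantile normalization or array median centring, and 5 without dim genes or with trend and robust settings. With the mean of probe sets it was again 1, but higher (Ufm1) where the other was lower (Sae1). The 6 higher and 0 lower calls of the interferon list were 4 and 1 with spike-in centring, with or without vehicle replicate 1, 7 and 1 with a pseudocount of 64, 5 and 1 with the mean of probe sets, and 8 and 1 without dim genes or with trend and robust settings. The 1 was Socs3, and Ifnlr1 without dim genes. Stat2 passed with quantile normalization (0.26) and with the mean of its probe sets (0.34). Laptm5, a leukocyte marker called lower, had 0.0471 once probe sets of the _x_at and _s_at types were left out. The causes of these shifts were not tested.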
